A study of Mus musculus with 2 samples.

Results

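Selenoproteins are proteins that carry selenocysteine, an amino acid built around selenium and inserted at a UGA codon that would otherwise stop translation. The insertion needs a stem-loop in the messenger RNA, proteins that bind it and a dedicated transfer RNA. Most selenoproteins of known function are oxidoreductases: they remove peroxides, reduce thioredoxin or repair oxidised methionine, and others act in protein folding, selenium transport or thyroid hormone conversion. Bone cells, marrow precursors and the muscle that clings to a femur all express several of them.

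Described here are 10 selenoprotein genes of the mouse, Selenow, Gpx1, Gpx3, Gpx4, Selenop, Selenof, Selenok, Txnrd1, Txnrd2 and Msrb1, out of 12393 genes with a probe set of their own. A probe set is a group of short oligonucleotides read together as 1 intensity. Every probe set annotated to 1 of these genes alone was taken, which gave 15. The genes were chosen by measured intensities, because a probe set of Selenow and one of Gpx4 read lower on the allograft array, so the values below describe these arrays and no test is attached to them. The allograft group is 1 array of total RNA from a femur allograft, tissue moved between animals of a species, and the autograft group is 1 array from a femur autograft, tissue moved within an animal. Both samples are labelled C57BL/6 mouse bone. Whether that strain was donor or recipient, the time after grafting, any treatment, the age and the number of animals are not stated in the labels.

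With 1 array per graft type no difference has a replicate check, and the precision of every value is limited by that number. In a bulk sample, fewer cells of a type and less RNA per cell cannot be told apart. The arrays had been scaled alike, with 2% trimmed means of 500.2 on the allograft and 500.1 on the autograft array. A floor was set at 175.2, the median intensity over both arrays without control probe sets, and a reading at or above it is called above the floor. Each ratio below is log2 of allograft over autograft, with lower values set to the floor first. All 8 osteoblast markers with a probe set passed the floor. There were 4 ratios above 0 and 4 below, 3 genes at least 2-fold higher and 2 lower in the allograft and a median of -0.27. The summed intensities of these markers went the other way, at 29316 in the allograft and 23023 in the autograft. Among all 7833 genes above the floor, each read by its brightest probe set, 0.868% were at least 2-fold higher and 0.753% lower. The osteoblast ratios ran from Col1a1, the main collagen of bone, at 2.70 to Omd, osteomodulin, at -1.27, so bone genes themselves differed between the arrays.

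Of the 15 probe sets, 11 were above the floor on both arrays and 4 were below it on both. They represent 9 genes above the floor. Txnrd2 was below it throughout. Only Selenow and Gpx4 had more than 1 probe set above the floor, and in each of them the probe sets pointed in opposite directions. Opposite directions alone were common: among 1925 genes with such a pair, 755 (39.2%) had them. Selenow and Gpx4 are the only members with a probe set past 2-fold.

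Selenow encodes a small protein with a thioredoxin-like fold that is abundant in skeletal muscle and brain. Its probe set 1416521_at read 985 in the allograft and 2214 in the autograft, a log2 ratio of -1.17, so the allograft intensity was 44.5% of the autograft one. Its probe set 1460561_x_at read 7781 in the allograft and 6035 in the autograft, a log2 ratio of 0.37. Read by the first, the Selenow transcript was more than 2-fold lower in the allograft; read by the second, it was 1.29-fold higher.

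Gpx4 encodes the peroxidase that reduces phospholipid hydroperoxides within membranes and thereby holds back ferroptosis, a form of cell death driven by lipid peroxides. Its probe set 1456193_x_at read 1011 in the allograft and 3467 in the autograft, a log2 ratio of -1.78 and 29.2% of the autograft intensity. Its probe set 1451695_a_at read 4582 in the allograft and 3432 in the autograft, a log2 ratio of 0.42, or 1.34-fold higher. The pattern was therefore that of Selenow, with one probe set well below and the other slightly above 0.

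**Figure D1:**
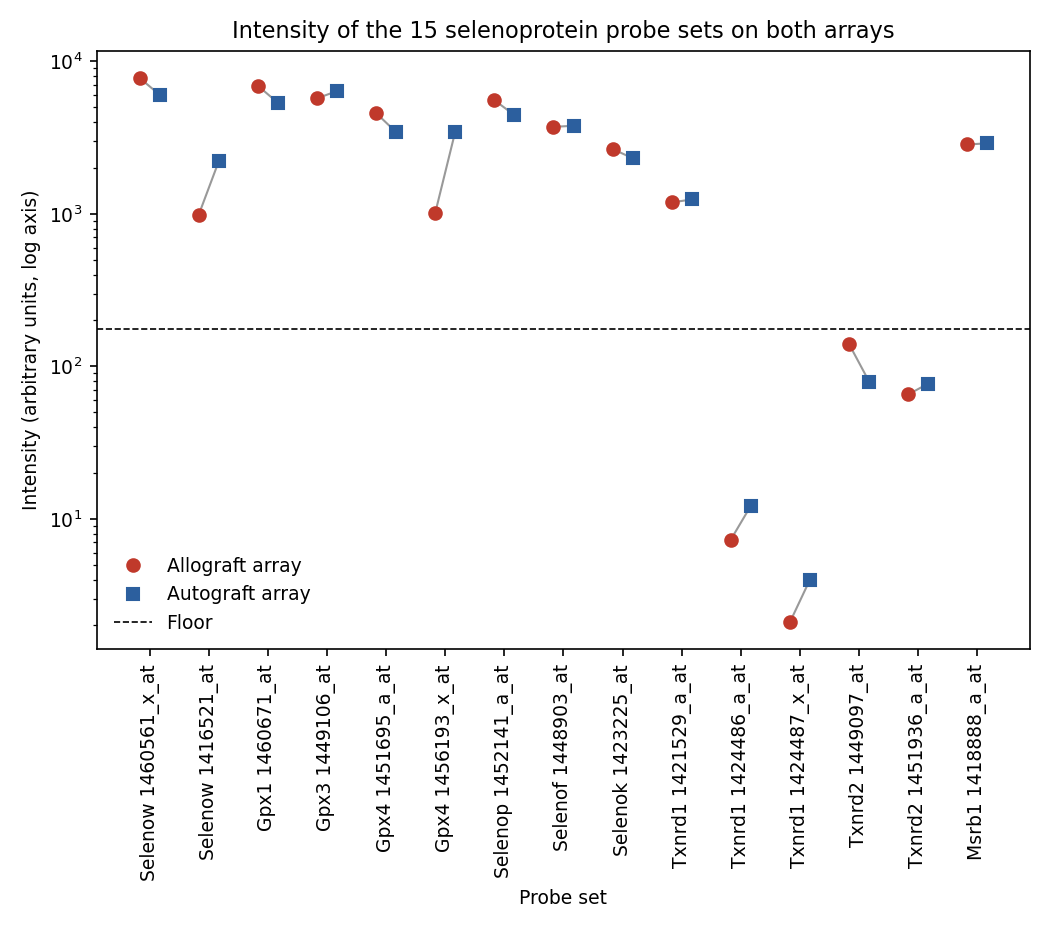
Intensity (arbitrary units, log axis) of each of the 15 probe sets, with the allograft array as circles, the autograft array as squares and the floor of 175.2 as a dashed line. Selenow and Gpx4 each have one probe set that reads far lower in the allograft and one that reads higher, while 4 probe sets of Txnrd1 and Txnrd2 lie below the floor.

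The marks in the probe set names differ between these pairs. An x marks oligonucleotides of which some can match other transcripts, and an a marks a set that reads several transcripts of the same gene. In Selenow the lower probe set is unmarked and the higher one has the x; in Gpx4 the lower one has the x and the higher one the a. Whether oligonucleotides matching other transcripts took part in these readings was not tested. Among all 892 named probe sets with an x that were above the floor on at least 1 array, 7 were at least 2-fold lower in the allograft (0.785%) and 27 at least 2-fold higher (3.03%). Among the 7097 unmarked ones, 57 were lower (0.803%) and 50 higher (0.705%).

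At the level of probe sets, 2 of the 11 above the floor were at least 2-fold lower and 0 at least 2-fold higher. Over all 11010 named probe sets above the floor on at least 1 array, 79 were 2-fold lower (0.718%) and 109 higher (0.99%). The low members are those for which the genes were picked, so nothing is read from that contrast. The Gpx4 probe set 1456193_x_at had the third lowest ratio of the 11010, and 39 had a ratio at or below that of the Selenow probe set 1416521_at. When each gene was read from its brightest probe set by mean intensity, 0 of 9 genes were 2-fold apart in either direction, against 0.753% lower and 0.868% higher among 7833 named genes. With the dimmest probe set above the floor instead, Selenow and Gpx4 made 2 of 9 lower, against 0.74% of 7836 named genes read the same way.

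Such disagreement within a gene could be set beside the other genes on the arrays. For 1925 genes the brightest and the next probe set were both above the floor on both arrays, and their ratios differed by 0.26 in the median, with an SD of 0.44. The signs were opposite in 755 of these genes (39.2%). The Selenow pair differed by 1.53 and the Gpx4 pair by 2.19. Selenow and Gpx4 were chosen for their low probe sets, so the gaps are given as a description. Counting each gene itself, 8 of the 1925 were at least as far apart as Selenow (0.416%) and 3 at least as far as Gpx4 (0.156%). In 5 genes (0.26%) the next probe set was at least 2-fold lower while the brightest was above 0: Sugp2, Gpx4, Selenow, Faap20 and Carhsp1, of which Sugp2, Faap20 and Carhsp1 were named after their values were seen. Which part of the transcript each probe set reads was not analysed here.

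Control probe sets that read the ends of a transcript differed between the arrays too. Those for the 3' and 5' ends of beta-actin gave a 3' to 5' intensity ratio of 1.77 in the allograft and 1.19 in the autograft. Those for Gapdh gave 0.194 in the allograft and 0.0349 in the autograft. The Gapdh 3' probe set was dim, at 1577 in the allograft and 233 in the autograft. The 5' one read 8122 in the allograft and 6671 in the autograft. Which RNA was of better quality is not read from these ratios. The part of RNA quality in the readings of Selenow and Gpx4 was not tested.

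The other glutathione peroxidases among the members, Gpx1 and Gpx3, were each read by 1 probe set. Gpx1, the cytosolic enzyme that removes hydrogen peroxide, read 6923 in the allograft and 5342 in the autograft, a log2 ratio of 0.37. Gpx3, the secreted form found in plasma, read 5719 in the allograft and 6381 in the autograft, a log2 ratio of -0.16. Gpx1 and Gpx3 thus lay on opposite sides of 0, each less than 1.3-fold apart between the arrays.

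Selenop, a secreted protein with several selenocysteines that carries selenium between tissues, read 5567 in the allograft and 4442 in the autograft, a log2 ratio of 0.33. Selenow, Gpx1, Selenop and Gpx3 were read in the brightest range of the arrays, where ratios ran above 0. In the brightest of 20 intensity bins the median ratio was 0.27, and 95% of its ratios lay between -0.31 and 0.80. The high Selenow probe set, Gpx1 and Selenop lay near that median, and Gpx3 lay below it and within that range. With the trend of ratio on intensity removed, the ratios were 0.13 for the high Selenow probe set, 0.17 for Gpx1, 0.16 for Selenop, -0.36 for Gpx3 and 0.30 for the high Gpx4 probe set. The low probe sets stood at -1.12 for Selenow and -1.75 for Gpx4 with the trend removed. The bin medians around them were near 0 before that step, at -0.07 for Selenow and -0.01 for Gpx4.

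**Figure D2:**
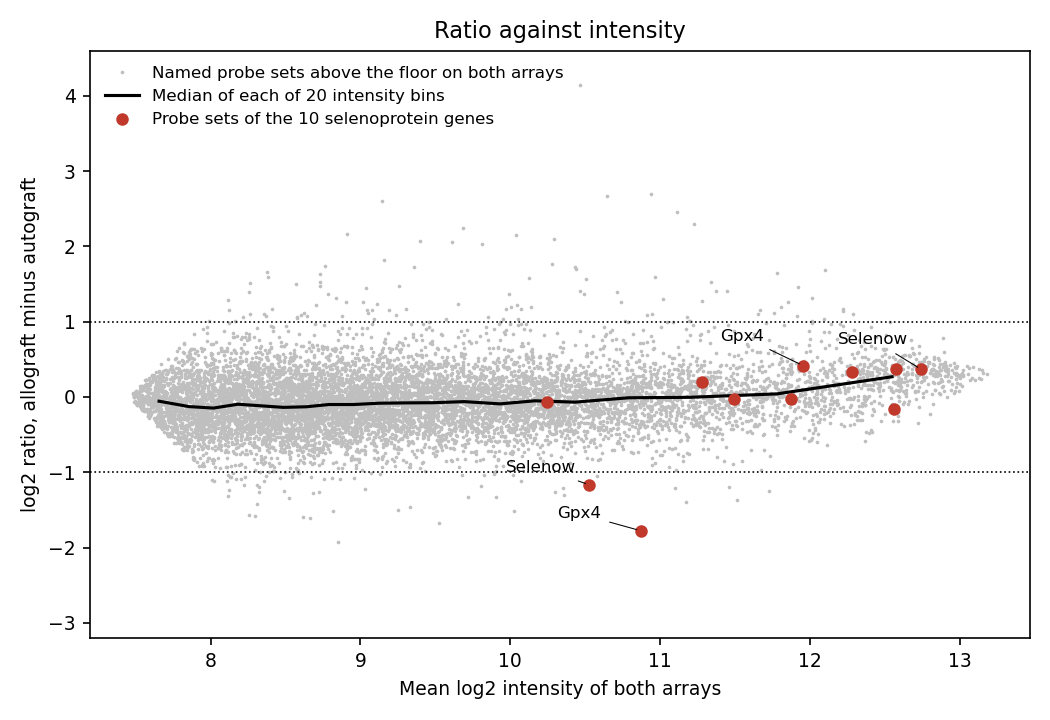
log2 ratio of allograft minus autograft against mean log2 intensity, with all named probe sets that both arrays read above the floor in grey, the median of each of 20 intensity bins as a line and the 11 selenoprotein probe sets as large points. Dotted lines mark 2-fold; the lower probe sets of Selenow (-1.17) and Gpx4 (-1.78) lie beyond it, and the other 9 lie between -0.16 and 0.42.

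The thioredoxin reductases return oxidised thioredoxin to its reduced form. Txnrd1, the cytosolic enzyme, read 1188 in the allograft and 1243 in the autograft by 1421529_a_at, a log2 ratio of -0.07. Its other probe sets were far below the floor, at 7.3 in the allograft and 12.2 in the autograft for 1424486_a_at and at 2.1 in the allograft and 4.0 in the autograft for 1424487_x_at. Txnrd2, the mitochondrial enzyme, read 140 in the allograft and 79.5 in the autograft by 1449097_at, and 65.4 in the allograft and 77.1 in the autograft by 1451936_a_at. No ratio is given for values below the floor on both arrays.

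Msrb1, which reduces oxidised methionine in proteins, read 2850 in the allograft and 2901 in the autograft, a log2 ratio of -0.03. The remaining members belong to the endoplasmic reticulum. Selenof, a partner of the glucosyltransferase that checks glycoprotein folding, read 3718 in the allograft and 3781 in the autograft (-0.02). Selenok, a membrane protein that works with the palmitoyltransferase Zdhhc6, read 2664 in the allograft and 2316 in the autograft (0.20). Over all 7 probe sets above the floor outside Selenow and Gpx4, the ratios ran from -0.16 to 0.37 and no fold exceeded 1.30, inside the central 95% of all named probe sets (-0.76 to 0.72).

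By brightest probe set, 5 of the 9 genes above the floor had a ratio above 0 and 4 below, with a median of 0.20. Over all 7833 named genes above the floor the median was -0.08, with 40.4% above 0 and 59.5% below. Selenof and Msrb1 stood so close to 0 that centring on the median ratio or scaling to the 75th percentile turned their signs, which gave 7 genes above 0 and 2 below. The sign of the members' median rested on the choice of probe set. It was -0.03 with the mean over a gene's probe sets and with the dimmest one, and -0.02 with probe sets free of the s and x marks.

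Mice have further selenoprotein genes, of which 14 were listed for comparison. The annotation had no probe set for Dio3, Selenoi or Selenoo alone, and Gpx2, Dio1 and Selenov were below the floor on both arrays, with readings of at most 106. Of the 8 genes above the floor, 7 had a ratio below 0 and 1 above, with a median of -0.29, and 0 were 2-fold apart. Over all 7833 named genes above the floor, 0.868% were at least 2-fold higher and 0.753% lower. At these shares lists this short, here and in the related lists below, would hold few or none. The difference between the median of -0.29 and the 0.20 of the 10 genes was not tested.

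Selenom, a thioredoxin-like protein of the endoplasmic reticulum, had the lowest ratio of these at -0.73, reading 1389 in the allograft and 2310 in the autograft. Dio2, which converts thyroxine to its active form, read 190 in the allograft and 297 in the autograft (-0.64) by 1418937_at, and was below the floor on both arrays by 1418938_at (85.2 in the allograft and 99.3 in the autograft) and 1426081_a_at (76.2 in the allograft and 158 in the autograft). Selenon, an endoplasmic reticulum protein whose loss causes a myopathy in humans, read 610 in the allograft and 711 in the autograft (-0.22). Selenoh, a nucleolar protein, read 1434 in the allograft and 1615 in the autograft (-0.17). Selenot, another thioredoxin-like protein of the endoplasmic reticulum, read 2675 in the allograft and 2519 in the autograft (0.09). It was the one gene above 0. Txnrd3, a thioredoxin reductase best known from testis, was above the floor in the autograft alone by 1449623_at, at 153 in the allograft and 214 in the autograft, which gives a bound of -0.29. It was below the floor on both arrays by 1423869_s_at (152 in the allograft and 138 in the autograft) and 1423868_at (16.3 in the allograft and 84.3 in the autograft).

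Selenos and Sephs2 had several probe sets above the floor. The 3 probe sets of Selenos, which helps to draw misfolded proteins out of the endoplasmic reticulum, stood at -0.28, 0.04 and -0.13. Those of Sephs2, the enzyme that makes the selenium donor for selenocysteine and is itself a selenoprotein, stood at -0.36, -0.19 and -0.24. Within either gene the probe sets lay at most 0.32 apart.

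**Figure D3:**
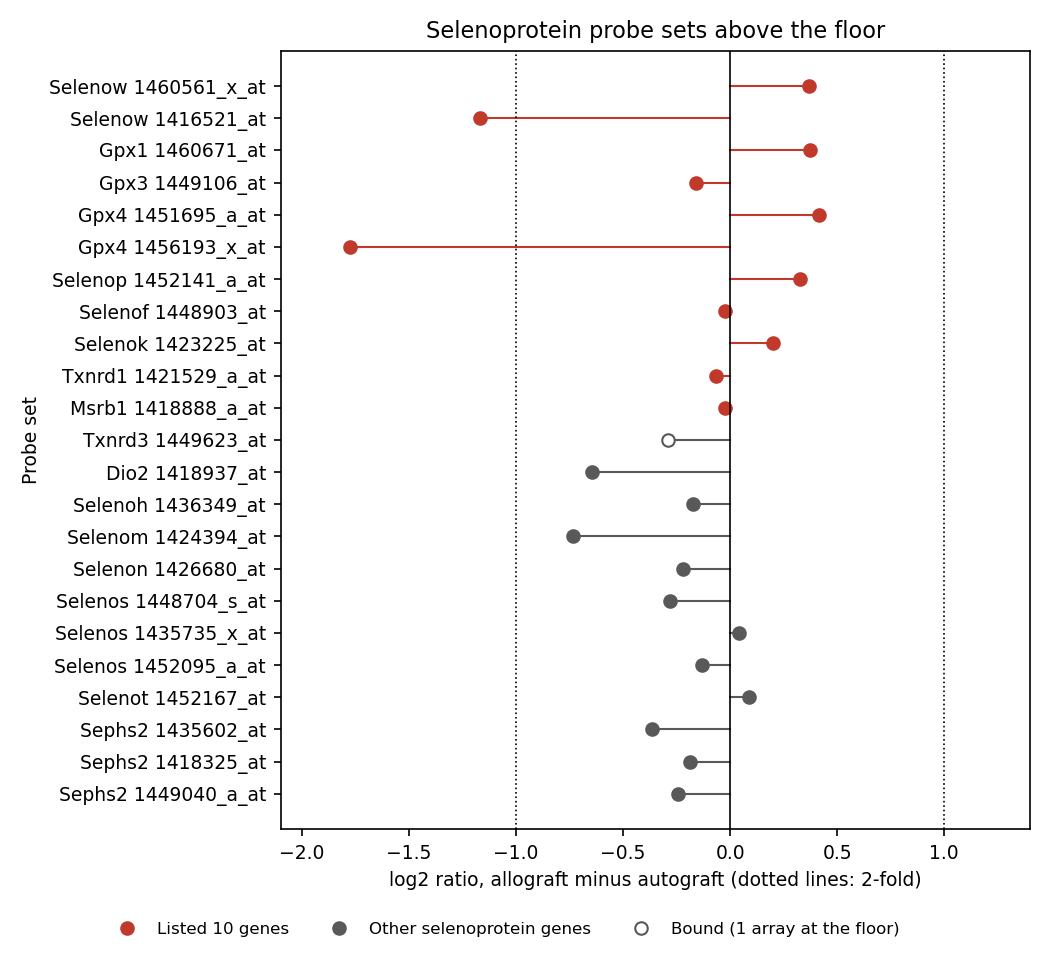
log2 ratio of allograft minus autograft for every selenoprotein probe set above the floor, with the 10 genes described here above the other selenoprotein genes and dotted lines at 2-fold. An open circle is a bound with 1 array at the floor; only probe sets of Selenow (-1.17) and Gpx4 (-1.78) pass the line.

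Genes that make or insert selenocysteine were split. Of 11 with a probe set, 6 were above the floor, 3 with a ratio above 0 and 3 below, with a median of -0.03 and none at 2-fold. Above 0 were Secisbp2l, a relative of the protein that binds the stem-loop (0.57, 615 in the allograft and 414 in the autograft), Ncl, nucleolin, which binds the stem-loop too (0.29), and Pstk, the kinase that acts on the serine-loaded transfer RNA (0.19). Further Ncl probe sets gave bounds of 0.08 and -0.21. Below 0 were Scly, which frees selenium from selenocysteine for reuse (-0.82, 379 in the allograft and 670 in the autograft), Eefsec, the elongation factor that delivers selenocysteine to the ribosome (-0.56), and Elavl1, an RNA-binding protein (-0.25). The sign of this list's median flipped to 0.04 after quantile normalization, 0.03 after centring on the median ratio or scaling to the 75th percentile, and 0.06 with the intensity trend removed, and the median was lower at -0.32 with the floor at the 25th percentile, -0.27 with no floor and -0.23 with the dimmest probe set of each gene.

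Some relatives of selenoproteins carry cysteine where these carry selenocysteine. Of 6 with a probe set, 4 were above the floor, 1 with a ratio above 0 and 3 below, with a median of -0.25 and none at 2-fold. Gpx8 and Gpx7, peroxidases of the endoplasmic reticulum, stood at -0.68 (2019 in the allograft and 3246 in the autograft) and -0.32 (1546 in the allograft and 1932 in the autograft). Msrb2, the mitochondrial partner of Msrb1, stood at -0.18, and Msra, which acts on the other form of oxidised methionine, at 0.15. Gpx5 and Gpx6 were below the floor on both arrays.

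The selenoenzymes share their thiol and peroxide work with thioredoxin, glutathione, peroxiredoxins, catalase and superoxide dismutases. Of 17 such genes above the floor, 9 had a ratio above 0 and 8 below, with a median of 0.03 and none at 2-fold. That median was the value of Gclm, a bound, at 179 in the allograft and 112 in the autograft. The highest were Gclc, the catalytic subunit of the first enzyme of glutathione synthesis (0.58, 384 in the allograft and 256 in the autograft), Gsr, glutathione reductase (0.49, 695 in the allograft and 494 in the autograft), and Sod1, the cytosolic superoxide dismutase (0.42). The lowest were Gss, the second enzyme of glutathione synthesis (-0.68, 195 in the allograft and 313 in the autograft), Sod3, the secreted superoxide dismutase (-0.57), and Prdx4, the peroxiredoxin of the endoplasmic reticulum (-0.31). Probe sets disagreed here too: another one of Sod1 stood at -0.42, and further ones of Prdx4 stood at 0.37 and -0.74. The median was -0.04 with the mean over a gene's probe sets, -0.14 with the dimmest one and -0.07 with probe sets free of the s and x marks.

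**Figure D4:**
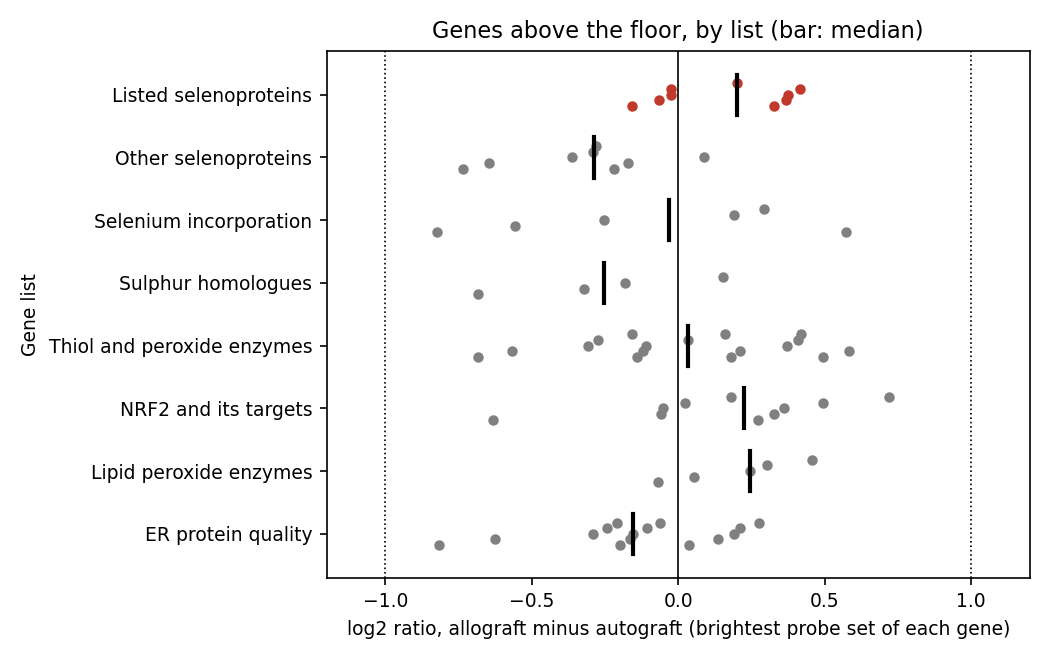
log2 ratio of allograft minus autograft of each gene above the floor, by its brightest probe set, in the 10 selenoprotein genes (median 0.20) and 7 related gene lists, with a bar at each median and dotted lines at 2-fold. No gene of these lists passes the 2-fold line; the medians are -0.29 for the other selenoproteins and -0.25 for the sulphur homologues.

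Markers of several cell types that express selenoproteins differed between the arrays. Of 8 erythroid markers with a probe set, 8 had a ratio above 0 and 4 were 2-fold higher, with a median of 1.04 and summed intensities of 19320 in the allograft and 9555 in the autograft. Among all 7833 named genes above the floor, 40.4% had a ratio above 0 and 0.868% were at least 2-fold higher. Of 10 neutrophil markers 10 were above 0 (median 0.37, sums 47030 in the allograft and 35645 in the autograft). Some of these were read in the brightest of the 20 intensity bins, where the median ratio was 0.27: Camp (0.32), Ngp (0.33) and S100a8 (0.18). Mpo stood higher, at 0.86. Of 10 skeletal muscle markers 6 were above 0 (median 0.43, sums 37701 in the allograft and 27308 in the autograft). Of 5 adipocyte markers above the floor 5 were above 0 (median 1.15, sums of 8 probe sets 26105 in the allograft and 15940 in the autograft), with Lep, Pparg and Cidec below the floor. Cartilage markers had 6 of 7 below 0 (median -0.66, sums of 10 probe sets 16880 in the allograft and 20583 in the autograft), with Col9a2, Matn1 and Sox9 below the floor. Other lists differed less in the median. Macrophage markers had 5 ratios above 0 and 4 below (median 0.07). Osteoclast markers had 3 above and 4 below (median -0.25), from Acp5 at 0.97 to Ocstamp at -1.46. That median was the value of Tnfrsf11a, a bound. The osteoclast sums of 8 probe sets went the other way, at 23929 in the allograft and 20342 in the autograft. Endothelial markers had 2 above and 7 below (median -0.17). The part of these cell types in the selenoprotein values was not tested.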

How the data were processed

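Total RNA of 1 allograft and 1 autograft femur sample was read on 1 array each, grouped by sample title. The authors deposited linear intensities for 22690 probe sets; the software, background correction and scaling behind these are not given in the sources used. Trimmed means within 10% of each other were taken as already scaled, and the values were used as deposited. After 64 controls were left out, the platform annotation gave 20380 probe sets a single symbol and 691 more than 1, and left out 1555; 20351 of the Entrez identifiers matched RefSeq (GRCm38.p6) and 0 symbols changed. No build is named for the array, so no coordinates are given. The floor was the median of both arrays. A ratio with 1 array at the floor is a bound. No p-value or interval is given with 1 array per group.

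The members, lists and tests were chosen with earlier results of these data known. Named were every selenoprotein gene with its probe sets, every gene above the floor in the lists for selenium incorporation and cysteine relatives, and the 3 highest and lowest of each further related list. The counting step was tested on simulated data with little noise and planted changes of at least 4-fold in bright probe sets. That setting cannot show how the count fares near 2-fold. Alternatives were quantile normalization, centring on the median or the 75th percentile, removal of the intensity trend by lowess (span 0.4), a floor at the 25th or at the 75th percentile, no floor with a pseudocount of 16, other choices of probe set, and thresholds of 1.5-fold and 4-fold. Python 3.11.15, numpy 2.4.6, pandas 2.3.3, statsmodels 0.14.6 and matplotlib 3.10.9 were used.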

Additional observations from a re-analysis of the deposited data

How the results depend on the processing

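The ratios of the 11 selenoprotein probe sets moved by less than 0.44, the SD between probe sets of a gene, under each of the 7 other scalings and floors. Apart from the low Selenow and Gpx4 probe sets, every ratio was smaller than this SD, so a sign could change within it. Msrb1 ranged from -0.08 to 0.04, Selenof from -0.16 to 0.04 and the high Selenow probe set from 0.07 to 0.43. The floors at the 25th and 75th percentile could not move these ratios, because all readings lay above them. The low Selenow probe set ranged from -1.17 to -1.10 and the low Gpx4 probe set from -1.82 to -1.71, so 2 probe sets stayed 2-fold lower; at 4-fold there were 0. By gene, 0 were 2-fold lower with the brightest probe set, 2 with the dimmest, and 1, Selenow, with probe sets free of the s and x marks. Over all named probe sets, 109 higher and 79 lower (58.0% higher) became 121 and 51 after quantile normalization (70.3% higher), 137 and 60 after scaling to the 75th percentile (69.5%), and 133 and 47 with the intensity trend removed (73.9%). The larger group was the lower one for a floor at the 25th percentile (265 and 425, 38.4% higher), with no floor (474 and 834, 36.2%) and at 1.5-fold (471 and 715, 39.7%). It was the higher one for a floor at the 75th percentile (60 and 22, 73.2%) and at 4-fold (14 and 1, 93.3%); the cause was not tested. The median of the cysteine relatives, -0.25, became -0.32 under the floor at the 75th percentile and -0.50 without a floor, below the -0.22 and -0.28 of the other selenoproteins, so these lists have no fixed order. No paired analysis was possible because each graft type has 1 array, and for the same reason no array could be left out. Signal near the floor limits what can be said of Txnrd2, Txnrd3 and Dio2. Other named genes were read near it too. Gss, Sod3, Gsta4 and Eefsec stood at 194.6, 198.4, 195.1 and 191.7 in the allograft, and Alox12 at 188.5 in the autograft.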

Other observations

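By their brightest probe set, no listed gene of the pathways in which selenoproteins work was 2-fold apart. Over all 7833 named genes above the floor, 0.868% were at least 2-fold higher and 0.753% lower. At these shares lists this short would hold few or none. Of the same 7833 genes 40.4% had a ratio above 0 and 59.5% below, with a median of -0.08. NRF2, encoded by Nfe2l2, is the transcription factor that drives antioxidant genes such as Txnrd1. Of 10 genes above the floor among it, its inhibitor Keap1 and its targets, 7 had a ratio above 0 and 3 below, with a median of 0.23. The highest were Taldo1 (0.72, 2237 in the allograft and 1358 in the autograft) and Tkt (0.49), enzymes of the pentose phosphate pathway, and Hmox1, heme oxygenase (0.36, 1088 in the allograft and 848 in the autograft). The lowest were the glutathione transferases Gsta4 (-0.63), Gstm1 (-0.06) and Gstp1 (-0.05). Further Gstm1 probe sets stood at 0.07, -0.50 and -0.24. Slc7a11, the cystine importer that feeds glutathione synthesis, was below the floor on both arrays.

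Of 5 genes above the floor in a list of lipid enzymes and other genes linked to lipid peroxidation, 4 had a ratio above 0, with a median of 0.24. Acsl4, which loads polyunsaturated fatty acids for membranes, stood at 0.46 (479 in the allograft and 349 in the autograft), Alox12 at 0.30 and Alox5ap at 0.24, while Lpcat3 stood at 0.05 and Slc3a2, a subunit of amino acid transporters, at -0.07. In the endoplasmic reticulum quality control list, 5 of 15 genes were above 0 and 10 below, with a median of -0.15. Among all named genes above the floor 59.5% were below 0, with a median of -0.08. The median of the list was the value of Derl3, a bound with the allograft at the floor. Syvn1, the ubiquitin ligase of the pathway that Selenos and Selenok serve, was lowest at -0.82 (729 in the allograft and 1285 in the autograft). Zdhhc6, the partner of Selenok, followed at -0.63, with a second probe set at -0.17, and Sel1l, the adaptor of Syvn1, at -0.29. The chaperones Hspa5 (0.28) and Hsp90b1 (0.21) and the oxidase Ero1b (0.19) were highest. A second probe set of Hspa5 stood at -0.05, and a second one of Hsp90b1 gave a bound of -0.43.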
